A study of Musca domestica with 24 samples.

Results

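The house fly (Musca domestica) genes caspase-1 and CPI, by their names a caspase and a cysteine protease inhibitor, were described in every library of a head and testis RNA sequencing study. They are 2 of the 16540 genes listed, found by their names in the gene column of the head table and of the testis table, and both passed the filter on low counts. They were chosen by name, with levels and differences from these same libraries in view, so their levels and differences are given as a description and carry no test. The 24 libraries hold testes and heads of the strains CSrab and IsoCS, which according to the series differ in their proto-Y chromosome only, with flies raised at a developmental temperature of 29 °C or 18 °C. Each of the 8 groups has 3 biological replicates, namely CSrab testis at 29 °C and at 18 °C, IsoCS testis at 29 °C and at 18 °C, CSrab head at 29 °C and at 18 °C, and IsoCS head at 29 °C and at 18 °C. Which proto-Y each strain carries, the age of the flies, the sex of the flies whose heads were taken, and the number of flies pooled in a library are not given in the sources used here. All levels are CPM, counts per M (mega) counts, after TMM scaling of the library sizes, TMM being a scaling that assumes most genes are alike between libraries.

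Caspases are cysteine proteases that cut their targets after aspartate residues, and in Drosophila effector caspases such as Drice and Dcp-1 carry out programmed cell death. In the Drosophila testis, caspase activity also takes part in the individualization of spermatids, in which excess cytoplasm is stripped from the maturing sperm. Cysteine protease inhibitors bind the active site of cysteine proteases, the best known being cystatins, which block papain-like enzymes such as cathepsins B and L in lysosomes and in secretions. The name caspase-1 does not by itself equate the house fly gene with the mammalian inflammatory caspase of that name, and the tables do not say which proteases CPI acts on.

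The gene caspase-1 has GeneID 101889252 and CPI has GeneID 101893808. Both are placed by the deposited tables on chromosome element E, one of the Muller elements shared by fly genomes, which holds 2931 of the 11725 genes that have an element. They lie on different scaffolds, caspase-1 on one that holds 19 of the listed genes and CPI on one that holds 13. The tables give no coordinates, exons or strand.

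Total counts per library were between 14.9 M and 40.0 M in testis and between 15.7 M and 35.7 M in head. Mean depth was higher at 29 °C than at 18 °C, with 29.9 M against 21.7 M in testis and 27.3 M against 19.9 M in head. Counts of caspase-1 were between 496 and 4223 per library and those of CPI between 91 and 4522, which puts the counting error of any value here between 1.49% and 10.5%. Of the marker lists for head, testis, muscle and fat body or blood, 2 of 19, 0 of 13, 0 of 5 and 3 of 10 genes were found by symbol or synonym. The GABA receptor subunit MdRdl, a nervous tissue gene, was at 0 to 0.295 CPM in the testis libraries and at 1.37 to 3.33 CPM in the head libraries, and these ranges did not overlap. The acetylcholinesterase gene LOC101890429 was at 6.33 to 14.97 CPM in testis and 11.95 to 24.6 CPM in head, ranges that overlapped. The testis label could not be checked against germline genes, since none of the 13 was found by name.

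In testis, caspase-1 stood at almost the same level in every group. In CSrab testes it had 28.5, 31.5 and 40.3 CPM at 29 °C, against 28.8, 32.4 and 41.9 CPM at 18 °C. In IsoCS testes it had 25.3, 35.9 and 32.4 CPM at 29 °C, against 32.6, 34.9 and 32.3 CPM at 18 °C. The 12 libraries thus spanned 1.66-fold, and all 4 groups overlapped one another. The replicate numbers of CSrab kept their places, replicate 3 being highest and replicate 1 lowest at both temperatures. At 29 °C the top place of replicate 3 rests on the TMM scaling, its factor of 0.706 being the lowest of all 24 libraries.

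The heads gave a different picture for the same gene, with wide gaps between replicates of a group. In CSrab heads caspase-1 had 105, 48.5 and 16.5 CPM at 29 °C, against 192, 140 and 40.1 CPM at 18 °C. In IsoCS heads it had 52.2, 20.2 and 120 CPM at 29 °C, against 211, 123 and 169 CPM at 18 °C. The 12 head libraries spanned 12.8-fold, from replicate 3 of the CSrab heads at 29 °C to replicate 1 of the IsoCS heads at 18 °C. Both temperatures of CSrab had their lowest head value in replicate 3. At 18 °C the IsoCS heads were all high, with no replicate below 123 CPM.

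The inhibitor gene CPI was the variable one in testis. In CSrab testes it had 114, 7.12 and 4.60 CPM at 29 °C, against 27.0, 15.5 and 4.85 CPM at 18 °C. In IsoCS testes it had 13.2, 16.0 and 2.87 CPM at 29 °C, against 128, 50.01 and 29.4 CPM at 18 °C. These 12 libraries spanned 44.6-fold. A single CSrab library at 29 °C, replicate 1, stood close to the top IsoCS library at 18 °C, while the other 2 of its group were among the 4 lowest testis libraries. Without that library the mean of CSrab testes at 29 °C was 5.86 CPM, against 41.8 CPM with it.

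In heads CPI ranged less widely than in testes. It had 173, 64.9 and 54.8 CPM in CSrab heads at 29 °C, against 116, 115 and 49.3 CPM in CSrab heads at 18 °C. In IsoCS heads it had 23.9, 17.6 and 66.3 CPM at 29 °C, against 121, 94.7 and 94.8 CPM at 18 °C. The head libraries spanned 9.80-fold, and the 2 lowest were both IsoCS at 29 °C. In bulk tissue, fewer cells of a type that expresses a gene and less RNA per cell cannot be told apart.

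**Figure D1:**
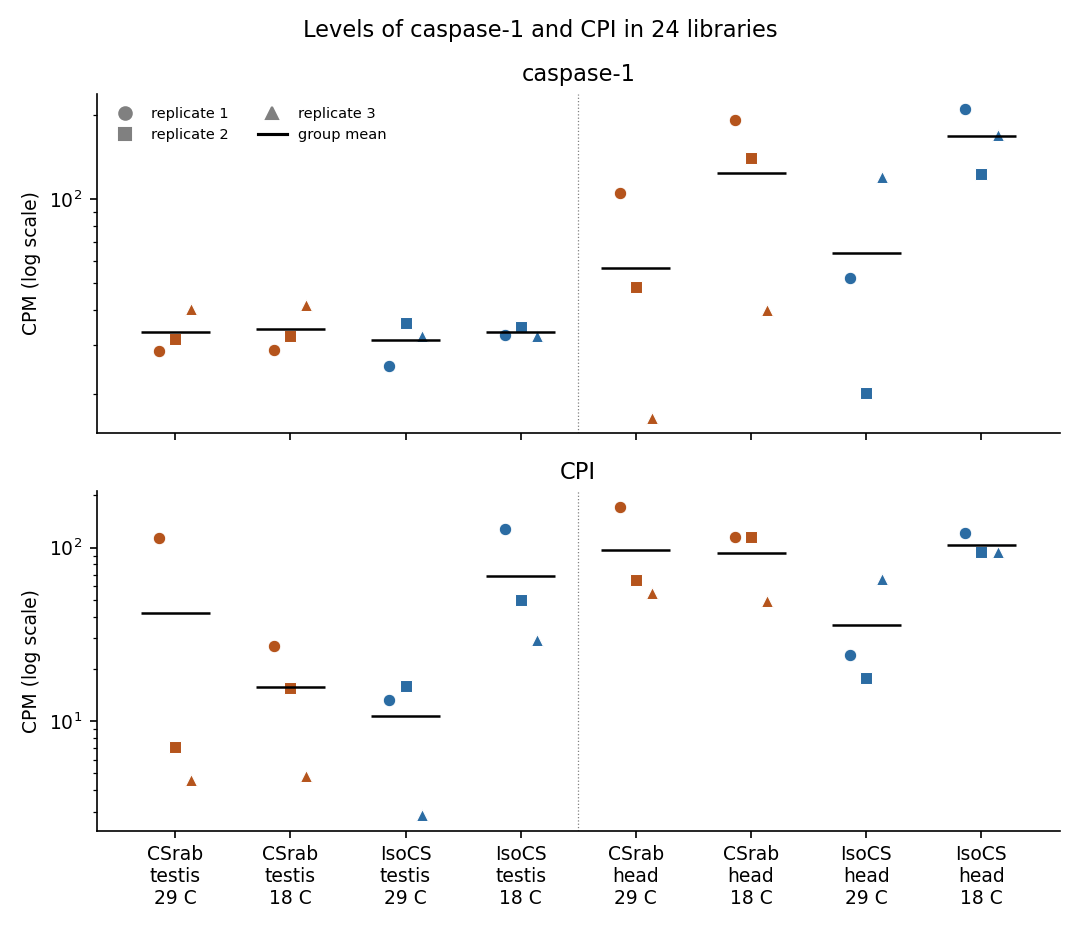
Level of caspase-1 (upper panel) and CPI (lower panel) in CPM on a log axis for each of the 24 libraries, with testis groups left of the dotted line and head groups right of it; circles, squares and triangles are replicates 1, 2 and 3 and the bar is the mean of a group of 3. In testis caspase-1 lies between 25.3 and 41.9 CPM, whereas CPI lies between 2.87 and 128 CPM there.

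Ordered by group mean, the 4 head groups came first for caspase-1. They ran from 168 ± 43.7 CPM (SD, n = 3) in IsoCS at 18 °C through 124 ± 77.4 CPM in CSrab at 18 °C and 64.2 ± 51.0 CPM in IsoCS at 29 °C to 56.6 ± 44.8 CPM in CSrab at 29 °C. The testis groups followed, between 34.4 ± 6.80 CPM in CSrab at 18 °C and 31.2 ± 5.38 CPM in IsoCS at 29 °C. For CPI the tissues were interleaved. IsoCS heads at 18 °C had the highest mean of CPI, 104 ± 15.2 CPM, followed by CSrab heads at 29 °C with 97.5 ± 65.4 CPM and at 18 °C with 93.2 ± 38.0 CPM. IsoCS testes at 18 °C came next for CPI with 69.1 ± 51.9 CPM, ahead of CSrab testes at 29 °C with 41.8 ± 62.3 CPM and IsoCS heads at 29 °C with 35.9 ± 26.4 CPM. The lowest means of CPI were 15.8 ± 11.1 CPM in CSrab testes at 18 °C and 10.7 ± 6.92 CPM in IsoCS testes at 29 °C. For either gene, each group overlapped the next one in this order, so no neighbouring pair differed beyond its spread.

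The spread between replicates of both genes was set beside that of every gene with a mean of at least 5 CPM in the tissue. The SD of log2 CPM within groups was 0.23 for caspase-1 in testis, where the median gene had 0.26 and 57.5% of 9581 genes had a larger SD. In head it was 1.12 for caspase-1, against a median of 0.25, and 5.61% of 8926 genes had a larger one. CPI had an SD of 1.64 in testis, exceeded by 1.94% of genes, and of 0.76 in head, exceeded by 10.2%. The protease gene was thus an ordinary gene in testis and one of the more variable genes in head, while its counting errors stayed small in both.

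**Figure D2:**
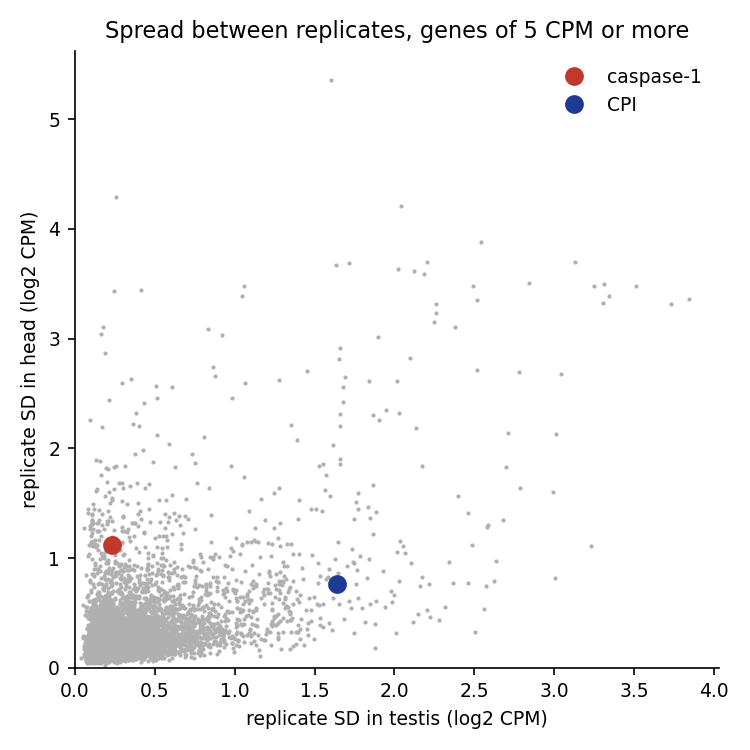
SD of log2 CPM between replicates of a group in testis (x axis) and in head (y axis), one grey point for each gene with a mean of at least 5 CPM in both tissues. The red point, caspase-1, lies at 0.23 in testis and 1.12 in head, and the blue point, CPI, at 1.64 in testis and 0.76 in head.

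The series asks how the proto-Y chromosome and the developmental temperature bear on expression. Between the strains, CPI differed in opposite directions at the 2 temperatures in testis. CSrab testes at 29 °C averaged 41.8 CPM of CPI and IsoCS testes 10.7 CPM, a fitted log2 difference of 1.98 ± 1.18 (SE). The groups overlapped, as replicates 2 and 3 of CSrab were below replicates 1 and 2 of IsoCS, and the difference was −0.84 ± 0.89 without CSrab replicate 1. At 18 °C, CSrab testes averaged 15.8 CPM of CPI and IsoCS testes 69.1 CPM, a log2 difference of −2.12 ± 1.19, or 0.230-fold. These groups did not overlap, the highest CSrab library having 27.0 CPM and the lowest IsoCS library 29.4 CPM. Without replicate 1 of the IsoCS testes at 18 °C their mean was 39.7 CPM and the strain difference −1.30 ± 1.25. Groups that do not overlap were common in testis, at 23.3% of 13260 genes in the strain comparison at 29 °C and 43.3% at 18 °C.

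In head the strain difference of CPI was 1.46 ± 0.60 on the log2 scale at 29 °C, from means of 97.5 CPM in CSrab and 35.9 CPM in IsoCS. The groups overlapped in one library, IsoCS replicate 3, which with 66.3 CPM lay above replicates 2 and 3 of CSrab. The difference was 2.28 ± 0.59 without that library and 0.69 ± 0.55 without CSrab replicate 1. At 18 °C the strain difference of CPI in head was −0.23 ± 0.59, with means of 93.2 CPM in CSrab and 104 CPM in IsoCS and groups that overlapped. Across all genes 23.2% of 12347 did not overlap between the strains in heads at 29 °C and 25% at 18 °C.

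Strain differences of caspase-1 were within 1 SE of 0 in all 4 settings. They were 0.11 ± 0.18 at 29 °C and 0.06 ± 0.18 at 18 °C in testis, and −0.16 ± 0.80 at 29 °C and −0.50 ± 0.80 at 18 °C in head. Leaving out single libraries moved the head values between −1.02 and 0.69 at 29 °C and between −0.98 and −0.07 at 18 °C. The head values, with their wider SE, leave the size and the direction of a strain difference of caspase-1 unresolved.

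In IsoCS, CPI was lower at 29 °C than at 18 °C in both tissues. In IsoCS testes CPI averaged 10.7 CPM at 29 °C and 69.1 CPM at 18 °C, a log2 difference of −2.72 ± 1.21, or 0.152-fold. The highest library at 29 °C had 16.0 CPM and the lowest at 18 °C had 29.4 CPM, so the groups did not overlap. In IsoCS heads CPI averaged 35.9 CPM at 29 °C and 104 CPM at 18 °C, a log2 difference of −1.60 ± 0.61, or 0.331-fold, and of −2.42 ± 0.59 without replicate 3 at 29 °C. Here too the groups did not overlap, with 66.3 CPM as the highest value at 29 °C and 94.7 CPM as the lowest at 18 °C. Non-overlapping groups made up 29% of genes between temperatures in IsoCS testes and 27.2% in IsoCS heads, so this alone does not set CPI apart from other genes.

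In CSrab the temperature difference of CPI had no steady direction. In testes the means were 41.8 CPM at 29 °C and 15.8 CPM at 18 °C, a log2 difference of 1.39 ± 1.16, but replicates 2 and 3 were lower at 29 °C than the libraries of the same number at 18 °C. Same-numbered CSrab testis libraries deviate together across genes, and with the replicate number as a block within strain the log2 difference was 0.30. It was −1.44 ± 0.91 without replicate 1 of the 29 °C group. In CSrab heads the means were 97.5 CPM at 29 °C and 93.2 CPM at 18 °C, a log2 difference of 0.09 ± 0.59, or −0.67 ± 0.56 without replicate 1 at 29 °C. The groups overlapped in both CSrab tissues, whereas 33.1% of genes in CSrab testes and 18.5% in CSrab heads did not overlap between temperatures.

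Heads from 29 °C had lower mean levels of caspase-1 than heads from 18 °C in both strains. IsoCS heads averaged 64.2 CPM at 29 °C and 168 CPM at 18 °C, a log2 difference of −1.45 ± 0.81, or 0.366-fold. The groups did not overlap, but narrowly, with 120 CPM in the highest library at 29 °C and 123 CPM in the lowest at 18 °C. Of 12347 genes, 27.2% did not overlap in this comparison. The difference was −2.30 without IsoCS replicate 3 at 29 °C. CSrab heads averaged 56.6 CPM at 29 °C and 124 CPM at 18 °C, a log2 difference of −1.11 ± 0.80 between groups that overlapped. It was −1.97 without CSrab replicate 1 at 29 °C, −0.67 without replicate 3 at 29 °C and −0.63 without replicate 1 at 18 °C. Each of the 3 CSrab replicate numbers was lower at 29 °C than at 18 °C. Same-numbered CSrab head libraries deviate together across genes, with r between 0.26 and 0.55. The SE of 0.80 comes from a fit without the replicate number, so it holds that shared spread. Under other scalings, filters, DESeq2 and replicate blocks the CSrab log2 difference was between −1.22 and −1.10. In testis the temperature difference of caspase-1 was −0.05 ± 0.18 in CSrab and −0.10 ± 0.18 in IsoCS.

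The interaction is the temperature difference in CSrab minus that in IsoCS. For CPI it was 4.11 ± 1.67 on the log2 scale in testis and 1.69 ± 0.84 in head. Without replicate 1 of the CSrab testes at 29 °C the testis value was 1.28 ± 1.15. The head value was 0.91 ± 0.74 without replicate 1 of the CSrab heads at 29 °C and 2.51 ± 0.74 without replicate 3 of the IsoCS heads at 29 °C. For caspase-1 it was 0.05 ± 0.26 in testis and 0.34 ± 1.12 in head, the head value lying between −0.53 and 1.19 with single libraries left out. In the authors' deposited table the adjusted p of the interaction was 0.244 for CPI and 0.991 for caspase-1 in testis, and 0.819 for CPI and 0.999 for caspase-1 in head.

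**Figure D3:**
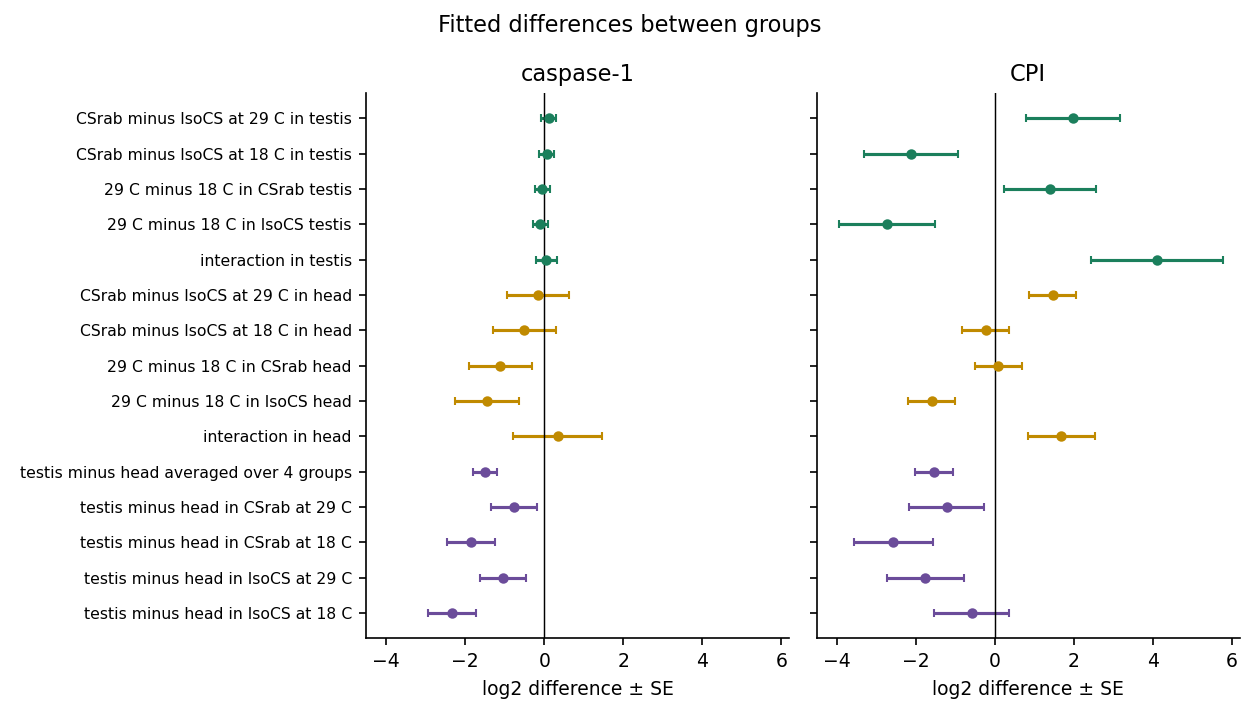
Fitted log2 differences with their SE for caspase-1 (left) and CPI (right), in testis (green), in head (gold) and between testis and head (purple). The strain and temperature differences of caspase-1 in testis lie between −0.10 and 0.11, and those of CPI in testis between −2.72 and 1.98.

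Averaged over the 4 groups of strain and temperature, both genes were lower in testis than in head, by a similar factor in the main fit. The log2 difference of testis minus head was −1.50 ± 0.30 for caspase-1, or 0.354-fold, and −1.53 ± 0.49 for CPI, or 0.346-fold. Without replicate 1 of the CSrab testes at 29 °C the averaged CPI value was −2.27. Other scalings, filters, DESeq2 and replicate blocks put it between −1.94 and −1.53. With single libraries left out, the averaged caspase-1 value was between −1.64 and −1.29. For caspase-1 the 2 tissues separated fully in IsoCS at 18 °C, with 32.3 to 34.9 CPM in testis and 123 to 211 CPM in head and a log2 difference of −2.33 ± 0.61. They overlapped in the other settings, with log2 differences of caspase-1 of −0.76 ± 0.59 in CSrab at 29 °C, −1.86 ± 0.60 in CSrab at 18 °C and −1.04 ± 0.59 in IsoCS at 29 °C. At 29 °C these rest on single head libraries, the CSrab value being 0.02 ± 0.61 without head replicate 1 and −1.24 ± 0.56 without head replicate 3, and the IsoCS value −0.22 ± 0.59 without head replicate 3.

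For CPI the tissues separated in CSrab at 18 °C, where testes had 4.85 to 27.0 CPM and heads 49.3 to 116 CPM, a log2 difference of −2.56 ± 1.01. They also separated in IsoCS at 29 °C, where testes had 2.87 to 16.0 CPM and heads 17.6 to 66.3 CPM, a log2 difference of −1.75 ± 0.98 that was −0.97 without head replicate 3. In IsoCS at 18 °C and in CSrab at 29 °C the tissues overlapped, with log2 differences of CPI of −0.58 ± 0.95 in IsoCS and −1.22 ± 0.96 in CSrab. The IsoCS value at 18 °C was −1.38 without testis replicate 1, −0.22 without testis replicate 3 and −0.89 under upper-quartile scaling. The CSrab value at 29 °C was −4.10 without testis replicate 1, −0.72 without testis replicate 2, −0.74 without testis replicate 3 and −0.49 without head replicate 1. Most genes separate these tissues, with 75.2% of 14334 genes not overlapping in CSrab at 29 °C, 80.5% in CSrab at 18 °C, 71.3% in IsoCS at 29 °C and 80.1% in IsoCS at 18 °C. The pair overlapped between testis and head in 5 of its 8 settings.

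The genes whose levels tracked CPI most closely included its immediate neighbours on the chromosome. In the RefSeq gene order of the house fly assembly Musca_domestica.polishedcontigs.V.1.1, LOC101893644 is the next gene on one side of CPI and LOC101893982 the next on the other, and in the deposited tables all 3 are on the same scaffold. Over the 12 testis libraries Pearson's r of log2 CPM with CPI was 0.95 for LOC101893644 and 0.94 for LOC101893982, ranks 2 and 3 among 9580 genes of at least 5 CPM. The first was LOC101889521 on element C, also with r = 0.95. These correlations describe libraries that share sequencing depth and dissection, and are given without a p.

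The neighbours showed the same uneven replicates as CPI, as the scatter plot of the 3 genes shows. LOC101893644 had 808, 97.9 and 31.0 CPM in CSrab testes at 29 °C, against 128, 49.5 and 37.8 CPM in CSrab testes at 18 °C. In IsoCS testes it had 85.5, 100 and 35.4 CPM at 29 °C, against 501, 313 and 193 CPM at 18 °C. The same CSrab library, replicate 1 at 29 °C, was therefore the highest or next to highest testis library for each of the 3 genes. LOC101893982 had 71.9, 7.40 and 1.03 CPM in CSrab testes at 29 °C, against 13.0, 8.92 and 3.78 CPM in CSrab testes at 18 °C. In IsoCS testes it had 10.5, 6.64 and 2.99 CPM at 29 °C, against 76.0, 25.5 and 15.1 CPM at 18 °C. In IsoCS testes the temperature groups of each neighbour did not overlap, as was so for 29% of 13260 genes. Both neighbours are described for their likeness to CPI in these same libraries, so this adds no separate evidence.

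In head LOC101893644 kept its likeness to CPI, with r = 0.93 and rank 3 among 8925 genes, after LOC101891240 on element A (r = 0.97) and LOC101894425 (r = 0.93). LOC101893982 had r = 0.72 with CPI in head. Over all 24 libraries the neighbours were the 2 genes most like CPI, with r = 0.96 for LOC101893644 and 0.91 for LOC101893982, ahead of LOC101897281 with r = 0.89. On the scaffold of CPI, 9 other genes reached 5 CPM in each tissue, and 2 of them had r over 0.8 in testis and 2 in head, whereas 0.762% of all genes did in testis and 1.73% in head. In testis these were the 2 neighbours, and in head LOC101893644 and a further gene, LOC101894330 (r = 0.85). The files do not show whether these 3 genes are similar in sequence. How the authors counted reads that match several copies is not given in the sources used here, so a part of the likeness that comes from shared reads was not tested.

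**Figure D4:**
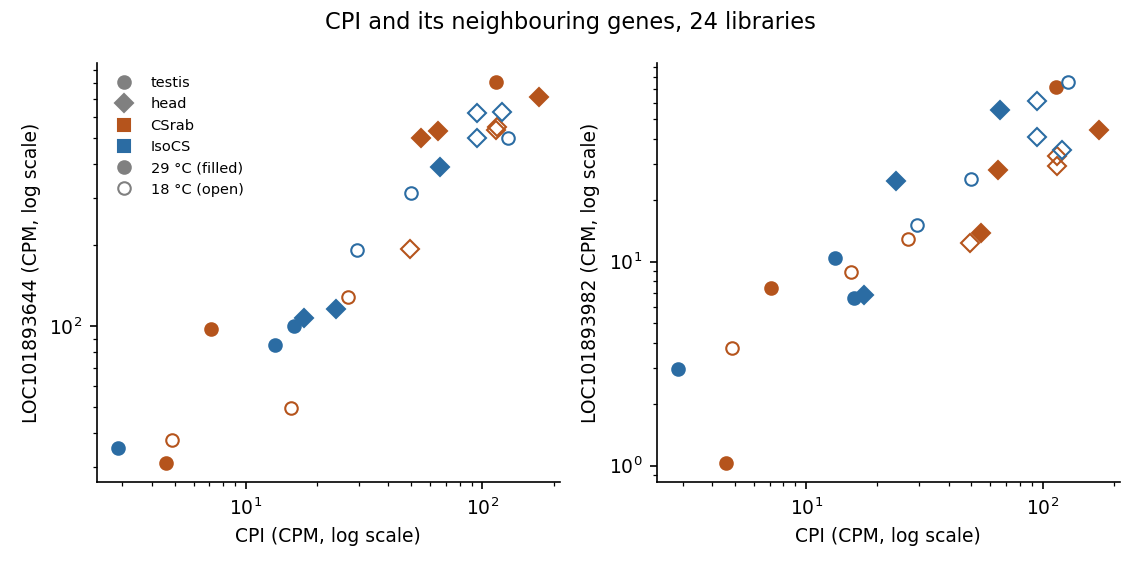
CPI (x axis) against its neighbouring genes LOC101893644 (left) and LOC101893982 (right), in CPM on log axes, one point per library with testis as circles, head as diamonds, CSrab in orange, IsoCS in blue, 29 °C filled and 18 °C open. Over the 24 libraries Pearson's r of log2 CPM is 0.96 on the left and 0.91 on the right.

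On the scaffold of caspase-1, 0 of 15 other genes of at least 5 CPM in testis and 0 of 13 in head had r over 0.8 with it, against 0.0418% of all such genes in testis and 8.24% in head. This count takes positive r only. LOC101889935 on that scaffold had r = −0.85 with caspase-1 in head, at a mean of 126 CPM. Below 5 CPM, LOC101889078 and LOC101891189 on that scaffold had r = 0.89 and 0.85 with caspase-1 in head, at mean levels of 2.13 and 1.84 CPM. In testis, where caspase-1 hardly varied, the genes most like it were LOC101894039 (r = 0.86), LOC101891777 (r = 0.85) and LOC101895980 (r = 0.83), and none of 9580 genes exceeded 0.9. In head 265 of 8925 genes, or 2.97%, had r over 0.9 with caspase-1. The leading ones were LOC101901499, LOC109611647 and LOC101895363, each with r = 0.99. LOC101901499 was at 16.8 CPM in replicate 3 of the CSrab heads at 29 °C and at 1748 CPM in replicate 1 of the IsoCS heads at 18 °C, the same libraries that held the lowest and highest caspase-1 value. Over all 24 libraries the genes most like caspase-1 were LOC101890226 and LOC101891095, each with r = 0.97, and LOC101890273 with r = 0.96. For comparison, 4 genes in testis and 7 in head had r over 0.9 with CPI. The tables pair none of these identifiers with a product.

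Within heads the protease and the inhibitor varied together. Likeness to caspase-1 was common there, with r over 0.8 across the 12 head libraries for 8.24% of 8925 genes, more than the 0.75 of CPI. No such share is given here for deviations from group means. Pearson's r of log2 CPM between caspase-1 and CPI was 0.75 over 12 head libraries (Spearman's rho 0.78), 0.72 without the 2 libraries farthest from the median of caspase-1, and 0.92 for deviations from the group means. By temperature it was 0.59 among the 6 head libraries from 29 °C and 0.96 among the 6 from 18 °C. In testis it was −0.39 (rho −0.27), −0.42 without the 2 farthest libraries and −0.60 for deviations from group means, over a range of caspase-1 of only 1.66-fold. Depth moved with caspase-1 in head, with r = −0.73 against the log2 total counts over 12 libraries, −0.89 among the 6 from 29 °C and −0.19 among the 6 from 18 °C. It was −0.46 without the 2 libraries farthest from the median of caspase-1 and −0.48 for deviations from group means. The part of depth in the head differences of caspase-1 was not tested. For CPI and depth r was −0.39 in head and 0.01 in testis.

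Of the 24 apoptosis genes and the 7 cysteine proteases or inhibitors listed by their Drosophila names, 0 were found by symbol or synonym, so the partners of the pair could not be followed. The tables do name 4 serpins, SPN9, SPN13, SPN15 and Spn2, a family of protease inhibitors that mostly act on serine proteases. This list was taken from the symbols in the tables. In edgeR's quasi-likelihood F test, with p-values adjusted over all genes after Benjamini and Hochberg, 0 of 4 serpins passed an adjusted p of 0.05 in any of the 10 comparisons, with 4 results in testis and 5 in head at an unadjusted p under 0.05. The share of all genes at that unadjusted threshold is not given here, so these counts cannot be read as an excess. By the DESeq2 Wald test 0 passed in testis and 3 results passed in head, namely Spn2 between the strains at 29 °C, SPN15 between the strains at 18 °C and SPN15 between temperatures in CSrab. The DESeq2 log2 differences in head were −2.31 ± 0.75 for Spn2 (adjusted p = 0.0255), −0.66 ± 0.19 for SPN15 between the strains (adjusted p = 0.0138) and 0.59 ± 0.19 for SPN15 between temperatures (adjusted p = 0.0440). The smallest adjusted p by edgeR was 0.075, for SPN15 in heads at 18 °C, where CSrab had 45.7, 61.4 and 45.6 CPM and IsoCS 71.7, 88.5 and 68.4 CPM, a log2 difference of −0.67 ± 0.18. These SPN15 groups did not overlap, being lower in 3 of 3 CSrab libraries. The same lack of overlap, in either direction, held for 25% of 12347 genes in this comparison, and SPN15 was picked by its adjusted p.

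Across all genes, edgeR called 10.9% between the strains in testis at 29 °C, 12.7% at 18 °C, 6.73% between temperatures in CSrab testes, 10.4% in IsoCS testes and 0.249% for the interaction in testis. In head it called 4.41% between the strains at 29 °C, 3.27% at 18 °C, 0.283% between temperatures in CSrab, 0.697% in IsoCS and 0.0243% for the interaction. DESeq2 called more, with 16.6% between the strains in testis at 29 °C, 18.6% at 18 °C, 12.6% between temperatures in CSrab testes, 18.7% in IsoCS testes and 1.97% for the interaction in testis. In head DESeq2 called 11.2% between the strains at 29 °C, 7.44% at 18 °C, 6.3% between temperatures in CSrab, 6.18% in IsoCS and 0.415% for the interaction. With 4 serpins per comparison, counts of 0 or 1 cannot be told from these shares. The median log2 difference of the serpins was between −0.78 and 0.05 over the testis comparisons and between −0.58 and −0.03 over those in head, against medians of all genes between −0.02 and 0.02.

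SPN13 stood out among the serpins for its spread in head. It had 2080, 1515 and 97.3 CPM in CSrab heads at 29 °C, against 2423, 2544 and 182 CPM in CSrab heads at 18 °C. In IsoCS heads SPN13 had 1154, 15.2 and 3340 CPM at 29 °C, against 2317, 2079 and 2535 CPM at 18 °C. The 3 lowest libraries, replicate 3 of CSrab at each temperature and replicate 2 of IsoCS at 29 °C, were also the 3 lowest for caspase-1. Pearson's r of SPN13 over 12 head libraries was 0.87 with caspase-1 and 0.73 with CPI. Across all genes of at least 5 CPM in head, 8.24% had r over 0.8 with caspase-1. In testis SPN13 was at 0.714 to 24.6 CPM, with r = −0.58 for caspase-1 and 0.63 for CPI.

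**Figure D5:**
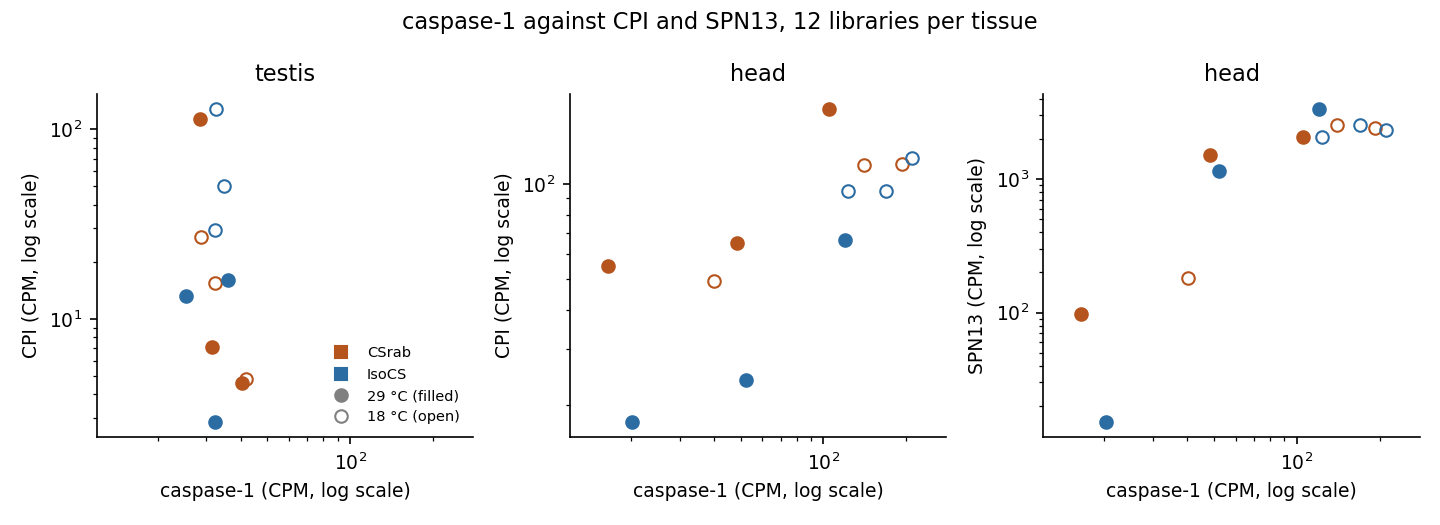
Level of caspase-1 (x axis) against CPI in the 12 testis libraries (left), CPI in the 12 head libraries (middle) and SPN13 in the 12 head libraries (right), in CPM on log axes, with CSrab in orange, IsoCS in blue, 29 °C filled and 18 °C open. In head Pearson's r of log2 CPM is 0.75 for CPI and 0.87 for SPN13, and in testis it is −0.39 for CPI.

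Genes of fat body and blood were set beside these levels, since either dissection could carry those tissues. Of 10 such genes 3 were found, namely yp3, a yolk protein gene, attacin, an antimicrobial peptide gene induced by infection, and lysozyme, an enzyme against bacterial cell walls. Their summed level was 14.5 to 39.1 CPM in CSrab testes at 29 °C, against 17.4 to 39.0 CPM in CSrab testes at 18 °C. It was 23.5 to 165 CPM in IsoCS testes at 29 °C, against 19.8 to 26.4 CPM in IsoCS testes at 18 °C. In the IsoCS testes from 18 °C, in which CPI was high, the summed level lay within the range of the CSrab testes. With 3 of 10 genes found, the sum does not measure how much fat body or blood a library held. In heads the sum was 249 to 900 CPM at 29 °C, against 108 to 579 CPM at 18 °C, in CSrab, and 392.4 to 1989 CPM at 29 °C, against 323 to 1138 CPM at 18 °C, in IsoCS.

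Over the 12 head libraries caspase-1 had r = −0.16 with yp3, 0.14 with attacin and 0.00 with lysozyme, but these values depended on the measure. They were −0.64 with yp3 without the 2 libraries farthest from the median of caspase-1, 0.50 with attacin as Spearman's rho, and 0.63 with lysozyme for deviations from group means. In testis CPI had r = 0.05 with yp3, −0.11 with lysozyme and 0.60 with attacin (rho 0.78, and 0.76 for deviations from group means). Attacin itself was uneven in testis, from 0.0935 CPM to 137 CPM, both in IsoCS at 29 °C. The part of an immune response or of attached tissue in the levels of CPI and caspase-1 was not tested.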

How the data were processed

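RNA from testis and head was taken up in TRIzol, cleaned on columns and made into libraries with a strand-specific TruSeq kit, per the labels' protocols. The authors deposited, per the file headers, raw counts of reads per gene for 12 libraries in each tissue table, with an adjusted p-value per gene for the interaction of strain and temperature. The submitters' processing notes name HISAT2, SAMtools, HTSeq and DESeq2, without versions or roles. The genome build and the treatment of reads with several matches are not given in the sources used here. All 24 count columns matched a library by name, with 0 left over.

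The members and lists were chosen with earlier results of these data known. For caspase-1 and CPI no test was made. Their log2 differences and SE come from edgeR 4.0.16 (R 4.3.3, limma 3.58.1) quasi-likelihood fits of all genes with 1 coefficient per group, over the 12 libraries of a tissue (13271 genes in testis, 12347 in head), or over 24 libraries (14334 genes) for testis minus head. Genes passed filterByExpr (minimum count 10, minimum total 15), library sizes were TMM-scaled, and the SE is the size of the log2 difference divided by the square root of F. CPM values use the 24-library TMM factors, which were between 0.706 and 1.12, and log2 CPM a prior count of 2. Overlap is of the CPM ranges of 2 groups of 3. The fits were tested on simulated data. Serpin tests were adjusted over all genes, with an adjusted p under 0.05 as threshold.

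The most alike genes are the 3 of highest Pearson's r among those with a mean of at least 5 CPM, by a rule set in the analysis plan. Lists of proteins similar to the members could not be made, since no protein sequences were in use, and the serpins were added after the symbols in the tables had been read. Of 14882 GeneIDs, 12947 matched the RefSeq gene table, which served for names and gene order only, its build not being shown to be that of the files. Alternatives were other scalings, DESeq2 1.42.0, other filters, replicate blocks and leaving out each library. No libraries were identical, the lowest chi-square per degree of freedom between replicates being 27.5. Same-numbered libraries deviated together (every r over 0.1) between temperatures within CSrab testis, IsoCS testis and CSrab head, which is 2 of 6 pairs of groups in testis and 1 of 6 in head. The labels do not say what a shared number means.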

Additional observations from a re-analysis of the deposited data

How the results depend on the processing

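Of 690 alternative values for 30 differences of caspase-1 and CPI, 679 moved by less than the replicate spread, and of 80 for the 16 group levels 79 did. That yardstick is wide here, and the 690 include fits that left out a library outside the groups compared. The mean of CPI in CSrab testes at 29 °C counts as unmoved, though it was 5.86 CPM without replicate 1, against 41.8 CPM. So does the testis minus head difference of caspase-1 in CSrab at 29 °C, at 0.02 without head replicate 1 against −0.76. The counts therefore do not show that the values are steady. Scaling by the upper quartile put caspase-1 in IsoCS testes at 18 °C at 30.0 CPM in place of 33.3 CPM. Single libraries moved CPI most. Leaving out one library in turn, its log2 strain difference at 29 °C was between −0.84 and 2.53 in testis and between 0.69 and 2.28 in head. Its temperature difference was between −1.44 and 2.03 in CSrab testes, between −0.67 and 0.38 in CSrab heads and between −2.42 and −1.26 in IsoCS heads. Its interaction was between 1.28 and 4.75 in testis and between 0.91 and 2.51 in head, and its testis minus head difference in CSrab at 29 °C between −4.10 and −0.49. For caspase-1 the testis minus head difference in IsoCS at 29 °C was between −1.47 and −0.22. The count of serpin calls in testis was between 0 and 1, the 1 arising without IsoCS testis replicate 2 or 3 at 29 °C, and DESeq2 gave 3 in head. The cause of these shifts was not tested beyond the library left out.

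With the replicate number as a block, the interaction of CPI was 3.30 in testis and 1.56 in head, and with a block within strain, added after the pairing check, 3.06 and 1.85. For CPI in CSrab testes the temperature difference was 0.65 with the block. The strain difference of CPI in testes at 29 °C was 1.11 with the block and 0.98 with the block within strain. Its testis minus head difference in CSrab at 29 °C was −2.16 with a block within tissue and −2.34 with one within strain and tissue, and that of caspase-1 −0.41 with the last. For caspase-1 in heads the strain difference was −0.37 at 29 °C with the block and −0.83 at 18 °C within strain, and the interaction 0.58 within strain. No member was tested, so no call could change under it, and serpin calls stayed at 0. Lists by protein similarity were not run. With 3 libraries per group and an SE between 1.16 and 1.67 log2 units for the strain, temperature and interaction values of CPI in testis, the spread between libraries limits what its differences can show more than depth does.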
